A study of Solanum lycopersicum with 21 samples.

Results

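Of the 13385 tomato gene IDs that were kept in this count table of leaf RNA, 150 formed the list described here: the IDs that stood highest, in each of 3 conditions, in a line poor in the hormone strigolactone compared with wild type. Counts were turned into CPM, a count divided by its library's total and scaled to a total of 1000000. An ID was kept if it carried a Solyc name (33925 of the 35039 IDs in the table did) and had a mean of at least 5 CPM over all 21 libraries. Its score was the smallest of 3 log2 ratios, depleted line over wild type, under irrigation and in 2 recoveries from drought, each taken on group means after adding 0.5 CPM. The 150 highest scores made the list. The members were thus chosen by the CPM values of the 18 libraries of those 3 conditions, and the genotype ratios there are given below as a description, with no test read from them. The 3 wild-type libraries sprayed with a strigolactone analogue counted only towards the mean of 5 CPM and had no part in the score.

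All plants were of the tomato cultivar M82 (Solanum lycopersicum), given as 3 weeks old in every group, and fully expanded leaves were taken. The depleted line is line 6936, 1 line in which CCD7 is silenced. Its roots and their exudates hold 70 to 80% less of the hormone, per the labels, which say nothing of its leaves. Wild type and line 6936 were each sampled as irrigated plants, as plants watered again after 1 drought (recovery 1) and as plants watered again after 2 droughts (recovery 2). Plants of the droughts had been uprooted and replanted with little water and were sampled later than the irrigated ones, which were sampled before any replanting, so recovery, handling and time cannot be told apart. A seventh group, wild type only, was irrigated and, 24 h before its leaves were taken, sprayed with GR24 5DS, the analogue, at 5 µM. The labels name unsprayed irrigated wild type as its control and no mock spray, and no depleted plants were sprayed. Time labels, which carry no unit, are 0 for the unsprayed irrigated groups, 31 for recovery 1, 76 for recovery 2 and 24 for the sprayed group. Spray and time label therefore cannot be told apart, and 3 weeks may not be the age of every group at sampling. Each group has 3 libraries, each of at least 3 leaves taken 1 per plant. The labels also name 5 plants, and if these are 5 per group, libraries of a group shared plants and the adjusted p below are too small. The labels give no batch.

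Strigolactones are hormones made from carotenoids, mostly in roots, and CCD7 is a carotenoid cleavage dioxygenase that acts early in their synthesis. They restrain shoot branching, draw symbiotic fungi and parasitic weeds to roots, and take part with abscisic acid in the closing of stomata under drought. The hormone is bound by the receptor D14, which then marks repressor proteins of the SMXL family for breakdown, so that a change in hormone is read out as a change in transcription. GR24 is a synthetic analogue widely used to apply the hormone from outside. The files do not pair the IDs with gene names, and the RefSeq table of tomato (assembly SLM_r2.1, 41476 genes) matched 0 of the 150 members. Members are therefore named by ID only, no role is given to any of them, and neither CCD7 nor leaf marker genes could be looked up here. Whether CCD7, or reads of a sequence used to silence it, are among the members was not tested. The first 2 digits of an ID are its chromosome.

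Library totals ran from 19267602 to 35433511 counts. The median log2 ratio of all kept IDs on the CPM scale was -0.23 under irrigation, -0.16 in recovery 1 and -0.23 in recovery 2, while in the edgeR fits with TMM scaling the medians over all tested IDs were 0.03, 0.00 and 0.02. Levels below are CPM on library totals, and log2 fold changes (± SE) come from edgeR's quasi-likelihood test over all 20373 IDs with enough counts, with Benjamini-Hochberg adjusted p. An ID is called higher or lower where the adjusted p is under 0.05. All 150 members were among the tested IDs. The kit kept no strand, so a member and an overlapping or antisense gene cannot be told apart, and members with near-identical copies may have shared reads. In leaf RNA, a change in the number of cells of a type and a change in RNA per cell cannot be told apart.

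The list was a mixed set in CPM and in size of the difference. The mean level over all 21 libraries ran from 5.13 to 4568 CPM with a median of 28.8, against a median of 25.3 CPM for all kept IDs. Scores ran from 8.07 down to 1.72, with 101 members at 2 or more, 31 at 3 or more and 14 at 4 or more. The median log2 ratio was 2.82 under irrigation (1.77 to 8.55), 2.68 in recovery 1 (1.73 to 8.73) and 2.72 in recovery 2 (1.72 to 8.68). The 3 conditions took similar turns in setting the score: the smallest ratio fell under irrigation for 48 members, in recovery 1 for 52 and in recovery 2 for 50. Within a member, the largest and smallest of the 3 ratios differed by a median of 0.88 and by less than 1 in 91 members. As drawn by rank, the ratios of the leading members spread widely and the lower ranks form a flat tail with no step at the end of the list.

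**Figure D1:**
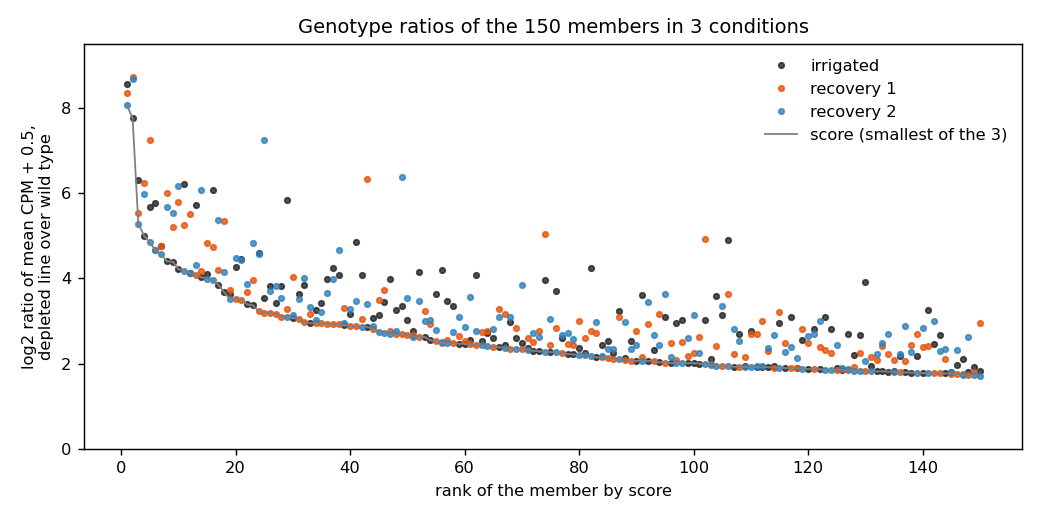
Log2 ratios of group mean CPM + 0.5, depleted line over wild type (y axis), for the 150 members by rank of their score (x axis), with 1 point for each of the 3 conditions and a line for the smallest of the 3, which is the score. The score falls from 8.07 to 1.72, and single ratios reach 4.05 above it.

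The last 3 members inside the list were Solyc06g007980.3 (score 1.73), Solyc04g082140.3 (1.72) and Solyc10g045240.2 (1.72). The next 3 outside were Solyc04g078730.2 (1.72), Solyc08g014430.3 (1.72) and Solyc08g044338.1 (1.71).

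Group means hid some overlap between single libraries. For 88 members all 9 depleted libraries lay above all 9 unsprayed wild-type libraries, which was so for 2.86% of kept IDs, and for the other 62 members the libraries overlapped. The 3 depleted libraries lay above the 3 wild-type libraries in 143 members under irrigation (16.2% of kept IDs), in 114 in recovery 1 (11.3%) and in 141 in recovery 2 (14.2%). edgeR called 142 members higher under irrigation (18.4% of all tested IDs), 134 in recovery 1 (9.92%) and 135 in recovery 2 (14.9%), and 0 lower in any of the 3. The rule used these libraries, so those counts describe the list and nothing more is read from them.

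1 depleted library stood apart. Against the median of the 9 unsprayed wild-type libraries, the median member was 3.04, 2.73 and 2.87 higher on the log2 scale in the irrigated depleted libraries (replicates 3, 6 and 7) and 2.46, 2.68 and 2.42 higher in those of recovery 2 (replicates 13, 11 and 8). In recovery 1 it was 3.13 and 3.02 higher in replicates 17 and 12, and only 1.65 higher in replicate 16. Replicate 16 was the closest to wild type of the 9 depleted libraries for 75 of the 150 members. The members took 1.68% of its counts and 3.37 to 5.48% of the counts of the other depleted libraries, against 0.345 to 0.890% in unsprayed wild type. The mirror list, 150 IDs chosen in the same way as steadily lower, was also nearest to wild type there, with a median of -1.46, and it was lower in each of the other depleted libraries, down to -2.57.

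**Figure D2:**
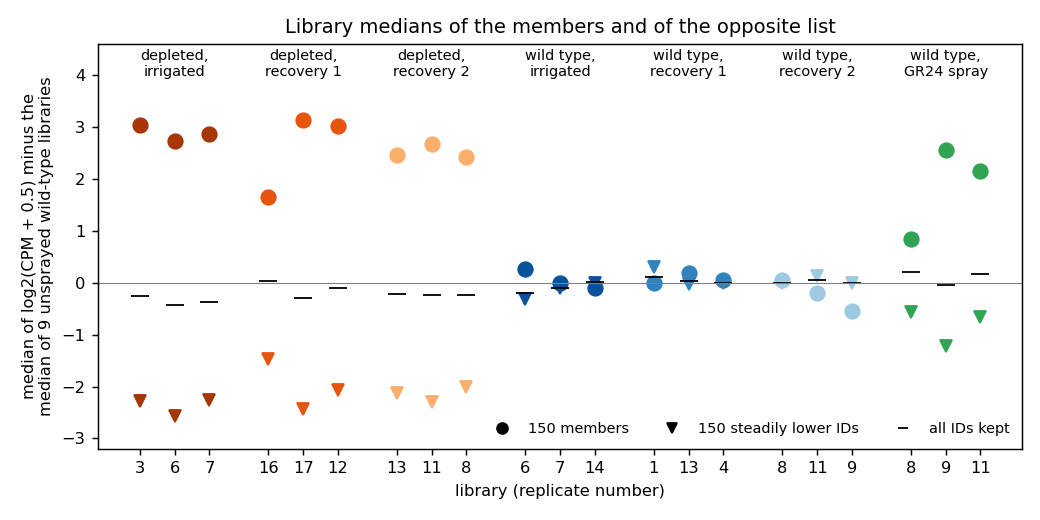
Median log2(CPM + 0.5), relative to the median of the 9 unsprayed wild-type libraries (y axis), in each of the 21 libraries (x axis, replicate numbers by group). Circles are the 150 members, triangles the 150 IDs of the mirror list and dashes all kept IDs. Replicate 16 of recovery 1 lies lowest of the depleted libraries at 1.65, and sprayed replicates 9 and 11 lie at 2.56 and 2.16 against 0.85 in sprayed replicate 8.

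Without replicate 16, 148 members had both remaining depleted libraries of recovery 1 above the 3 of wild type, the median ratio in recovery 1 was 3.00, and all 8 other depleted libraries lay above the 9 wild-type libraries for 119 members (3.80% of kept IDs). For the count of 148 the share of kept IDs was not taken, and nothing is read from it. A list scored without it shared 139 members with the one described. Values below are given per library, in the order irrigated 3, 6, 7, recovery 1 16, 17, 12 and recovery 2 13, 11, 8 for the depleted line, 6, 7, 14, then 1, 13, 4, then 8, 11, 9 for wild type, and 8, 9, 11 for the spray.

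The 2 highest scores belonged to IDs that were close to absent from every wild-type library, sprayed or not. Solyc06g060640.1, on chromosome 6, stood at 177, 201 and 184 CPM in irrigated depleted leaves, at 116, 188 and 217 CPM in recovery 1 and at 145, 173 and 122 CPM in recovery 2. The 12 wild-type libraries together held 11 counts of it, 3 of them in sprayed leaves, and none exceeded 0.115 CPM. Solyc01g090660.3, on chromosome 1, stood at 75.6, 106 and 142 CPM under irrigation, 183, 209 and 243 CPM in recovery 1 and 222, 274 and 119 CPM in recovery 2. It was the 1 member with 0 counts in all 12 wild-type libraries. Its mean over the depleted libraries, 175 ± 67.7 CPM (SD, n = 9), was at least 20661-fold higher than the 0.00846 CPM that 3 counts over those 12 libraries would give, a bound that covers counting error only. Whether the reads of these 2 IDs came from genes of the leaf or from a sequence used to silence CCD7 was not tested.

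A neighbour of the first showed the same split. Solyc06g060630.1, rank 7 and the ID next to Solyc06g060640.1 in the table, stood at 12.6, 16.97 and 13.1 CPM under irrigation, 10.8, 14.8 and 14.5 CPM in recovery 1 and 14.8, 14.8 and 12.2 CPM in recovery 2 in the depleted line. The 9 unsprayed wild-type libraries held 15 counts and the 3 sprayed ones 13, all of these in replicate 9 (0.445 CPM). Its coefficient of variation over the 9 depleted libraries, 13.3%, was the smallest in the list, against a median of 52.3% over the members. No library of either genotype approached the other.

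**Figure D3:**
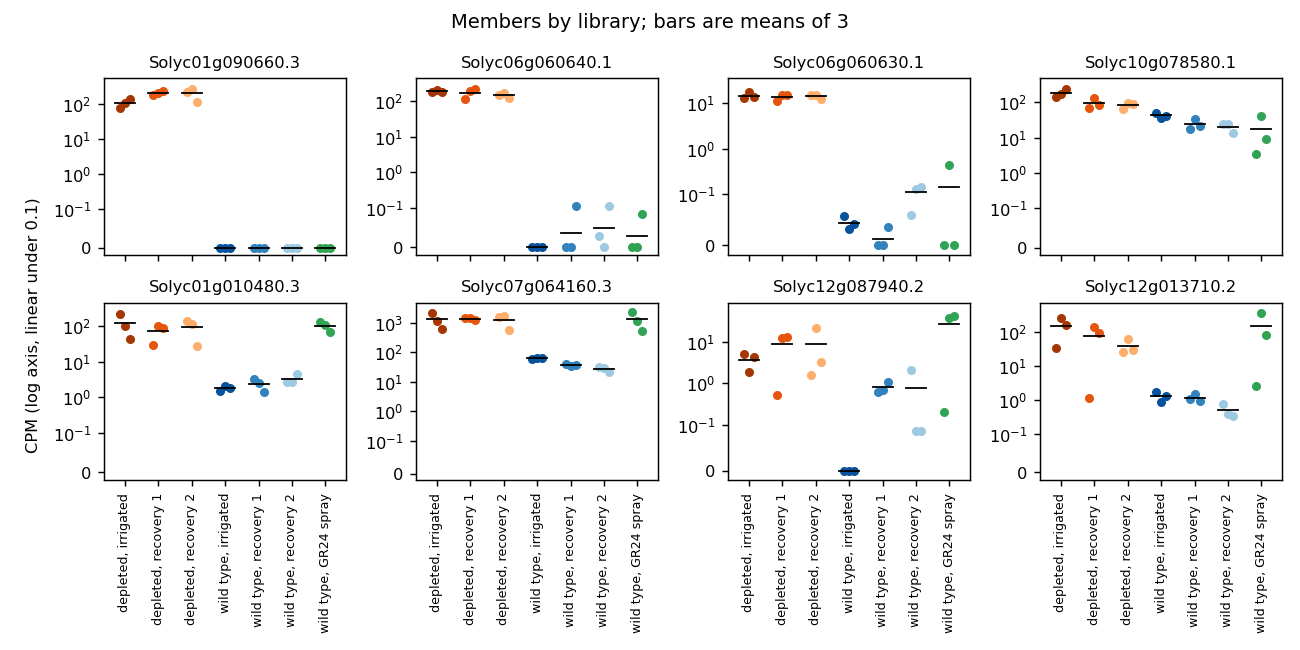
Levels of 8 members in each of the 21 libraries (y axis, CPM on a log axis that is linear under 0.1), by group (x axis). Points are libraries and bars the means of 3. The first 3 panels show members at or near 0 in all 12 wild-type libraries, the sprayed ones included, Solyc10g078580.1 shows sprayed libraries at 3.53, 41.0 and 9.14 CPM, and the lower row shows members that were higher after the spray.

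Other leading members differed as clearly between the genotypes and were also high after the spray. Solyc01g010480.3 (rank 6) stood at 224, 104 and 43.8 CPM in irrigated depleted leaves, and recovery 1 and 2 spanned 28.3 to 143 CPM. Unsprayed wild type held it between 1.40 and 4.43 CPM in all 9 libraries, with 1.54, 2.05 and 1.79 CPM under irrigation. The sprayed libraries held 134, 106 and 67.3 CPM, each above every unsprayed wild-type library and inside the range of the depleted line. The spray difference was 5.60 ± 0.71 on the log2 scale (edgeR, adjusted p = 3.45e-05).

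Solyc07g064160.3 (rank 9), 1 of 30 members at a mean of 100 CPM or more, showed the same pattern. It stood at 2209.8, 1209 and 612 CPM in irrigated depleted leaves, at 61.7, 63.2 and 65.9 CPM in irrigated wild type and at 2360.3, 1202 and 541 CPM in sprayed wild type. Recovered wild-type libraries were at 21.3 to 40.8 CPM, below the irrigated ones. The spray difference was 4.18 ± 0.52 (edgeR, adjusted p = 2.97e-05).

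Solyc12g013710.2 (rank 3) depended on the library far more. Irrigated depleted leaves held 34.2, 244 and 151 CPM, those of recovery 1 1.15, 137 and 90.6 CPM and those of recovery 2 25.8, 60.4 and 29.3 CPM. Replicate 16, at 1.15 CPM, lay inside the wild-type range of 0.345 to 1.69 CPM. Sprayed wild type held 2.65, 338 and 81.8 CPM, so that replicate 8 lay just above wild type while replicate 9 exceeded every depleted library.

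Solyc06g061200.1 (rank 5) was high in 8 of 9 depleted libraries and lay between the genotypes after the spray. It stood at 96.2, 89.4 and 66.1 CPM under irrigation, 2.24, 134 and 187 CPM in recovery 1 and 65.6, 35.8 and 139 CPM in recovery 2, and at 0.0641 to 3.47 CPM in unsprayed wild type. The sprayed libraries held 6.75, 6.74 and 3.64 CPM, each above every unsprayed wild-type library. Its spray difference, 1.96 ± 1.06, did not pass (edgeR, adjusted p = 0.179). Without irrigated wild-type replicate 6, which held 2.89 CPM against 0.346 and 0.213, it was 4.12 (adjusted p = 0.0458).

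The remaining members of the top 10 were 3 consecutive IDs on chromosome 12, and they varied together from library to library. Solyc12g010025.1 (rank 4) stood at 923, 327 and 665 CPM in irrigated depleted leaves, 16.4, 4319 and 595 CPM in recovery 1 and 247, 123 and 5339 CPM in recovery 2, and at 3.06 to 50.4 CPM in unsprayed wild type. Solyc12g010020.2 (rank 8) stood at 79.2, 24.03 and 39.9, then 0.878, 383 and 28.6, then 21.3, 8.98 and 277 CPM in the same libraries. Solyc12g010030.2 (rank 10) stood at 41.5, 13.5 and 21.6, then 0.273, 365 and 22.7, then 18.6, 6.54 and 460.5 CPM. For all 3, replicate 17 of recovery 1 and replicate 8 of recovery 2 were the highest depleted libraries and replicate 16 the lowest, below some wild-type libraries.

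Their sprayed levels were 132, 380.1 and 1929.8 CPM for Solyc12g010025.1, 3.48, 17.5 and 118 CPM for Solyc12g010020.2 and 21.7, 31.7 and 87.5 CPM for Solyc12g010030.2, highest in replicate 11 each time. Solyc12g010025.1 was 5.04 ± 1.70 higher after the spray (edgeR, adjusted p = 0.0353), and its adjusted p was 0.134 without sprayed replicate 11 and 0.0593, 0.112 and 0.101 without irrigated wild-type replicates 6, 7 and 14. Solyc12g010030.2 was 5.33 ± 1.90 higher (edgeR, adjusted p = 0.0451), and leaving out sprayed replicate 9 or 11 or any irrigated wild-type library gave an adjusted p of 0.0577 to 0.128. Solyc12g010020.2, at 4.35 ± 1.71, did not pass (edgeR, adjusted p = 0.0677), and did without sprayed replicate 8 (0.0484).

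Neighbouring IDs recurred in the list. Counting IDs within 100 of each other in number, 22 members fell into 9 runs, 4 of them with 3 members, against 10 members in 5 runs in the mirror list. No test was made of this difference, and runs were not counted for other sets of kept IDs. Neighbours may share reads or position, so they are not independent members. 3 of the 4 larger runs were consecutive in the table.

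The first of these, on chromosome 3, held the member with the highest CPM, a value not corrected for gene length. Solyc03g005760.1 stood at 7176, 8266 and 6488 CPM in irrigated depleted leaves, at 2446, 2098 and 1186 CPM in irrigated wild type and at 3796, 8038 and 5424 CPM in sprayed wild type. Solyc03g005770.2, next to it, stood at 4693, 8852 and 7451 CPM, at 885, 397 and 175 CPM and at 355, 5203 and 2347 CPM in the same groups. Sprayed replicate 8 was above all irrigated wild-type libraries for the first and below the highest of them for the second. The third ID, Solyc03g005775.1, stood at 10.6, 41.7 and 30.8 CPM, 4.26, 1.92 and 1.11 CPM and 0.779, 24.9 and 7.93 CPM.

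Of these, Solyc03g005760.1 was called higher after the spray, by 1.36 ± 0.39 (edgeR, adjusted p = 0.0159). Leaving out sprayed replicate 9 gave 0.92 (adjusted p = 0.0877), and leaving out irrigated wild-type replicate 14 gave 1.06 (0.0685). Solyc03g005770.2, at 2.23 ± 0.84, missed the threshold (edgeR, adjusted p = 0.0573) and passed without sprayed replicate 8 (0.0141) or irrigated wild-type replicate 6 (0.0382).

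A second run on chromosome 3 held Solyc03g096760.1, Solyc03g096770.1 and Solyc03g096780.1 (ranks 21, 32 and 20). In irrigated depleted leaves they stood at 29.7 to 167 CPM and in irrigated wild type at 1.32 to 7.03 CPM, with no overlap. Sprayed leaves separated them: Solyc03g096760.1 stood at 0.727, 12.3 and 5.31 CPM, Solyc03g096770.1 at 5.76, 15.5 and 5.05 CPM and Solyc03g096780.1 at 52.8, 86.8 and 30.4 CPM. For the last, every sprayed library exceeded every unsprayed wild-type library, and for the first, replicate 8 lay below all 3 irrigated ones.

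The run on chromosome 5 was looser, with Solyc05g055990.3, Solyc05g056050.3 and Solyc05g056070.3 (ranks 33, 136 and 146) among 10 consecutive IDs of the table. Solyc05g056070.3 stood at 2620.2, 3645 and 3022 CPM in irrigated depleted leaves, 1064, 786 and 530.2 CPM in irrigated wild type and 1190.3, 3375 and 1742 CPM after the spray. Solyc05g056050.3 stood at 1345, 2019.8 and 1747, 566, 328 and 232 and 313, 1240.1 and 554 CPM in the same groups. Solyc05g055990.3 stood at 28.98, 53.7 and 56.7, 7.00, 8.06 and 1.66 and 0.415, 13.2 and 19.5 CPM. Sprayed replicate 8 was the lowest of the 3 sprayed libraries for all 3 IDs.

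Members lay on all 12 numbered chromosomes, from 8 on chromosome 8 to 18 on chromosome 7. They made up 1.75% of the kept IDs of chromosome 7, 1.69% of those of chromosome 12 and 0.754% of those of chromosome 1. By the version digit at the end of the ID, 40 members (26.7%) ended in 1, against 10.9% of kept IDs and 25 of the 150 IDs of the mirror list. A digit of 3 ended 76 members (50.7%), 67.8% of kept IDs and 99 IDs of the mirror list. What the digit stands for is not stated in the files, and these shares were not tested.

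Steadiness differed widely among members. The 3 ratios of Solyc12g055840.2 were 1.80, 1.77 and 1.79, those of Solyc09g007260.3 were 1.84, 1.87 and 1.89 and those of Solyc07g032490.3 were 2.77, 2.68 and 2.63, the narrowest ranges of the list. After Solyc06g060630.1, the least variable members across the 9 depleted libraries were Solyc03g095260.3 (15.3%) and Solyc06g076470.3 (17.6%). Solyc03g095260.3 stood at 48.2, 44.3 and 45.2 CPM under irrigation, 70.3, 55.7 and 59.9 CPM in recovery 1 and 56.4, 58.6 and 49.8 CPM in recovery 2 in the depleted line and at 2.87 to 15.5 CPM in unsprayed wild type.

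The most variable members had their highest values in 1 or 2 depleted libraries. Solyc09g089500.3 had a coefficient of variation of 249%, with 0.303, 179 and 1.66 CPM in recovery 1 and 0.0382 to 14.3 CPM in the other depleted libraries. Solyc07g044900.1 had 180%, with 81.8, 165 and 2.07 CPM in recovery 2 and 0.242 to 14.2 CPM elsewhere. Its table neighbour Solyc07g044910.1 was also highest in replicates 13 and 11 of recovery 2, at 49.5 and 73.2 CPM. Solyc12g010030.2, described above, had 167%.

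The spray supplied libraries that the score had not used, and most members stood higher in them. Of the 150 members, 74 were called higher in sprayed than in irrigated wild type, a share of 49.3% against 14.4% of all tested IDs, and 0 were called lower, against 13.3%. The median difference was 1.99 on the log2 scale (quartiles 1.15 and 3.36), against 0.07 over all tested IDs, and was positive for 139 members. At an unadjusted p under 0.05, 95 members were higher and 2 lower, against 8140 of all 20373 tested IDs in either direction. DESeq2 called 86 members higher and 1 lower, counts given without a share over all IDs. The irrigated wild-type libraries did enter the score, which picked members partly for being low there, and that favours a higher value in any other library. The sprayed libraries also counted towards the mean of 5 CPM, and 3 members (Solyc12g087940.2, Solyc06g069150.1 and Solyc03g121900.1) reached it only through them, so that they had to differ. Of the other 147 members, 71 were called higher and 0 lower, with a median of 1.96. Leaving out sprayed replicate 9 gave 60 higher and 3 lower of the 150, and leaving out irrigated wild-type replicate 7 gave 54 in all.

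A list scored on the 2 recoveries alone, chosen after the data had been seen, did not use the irrigated libraries in its score. Its IDs were still those kept by the mean CPM over all 21 libraries, irrigated and sprayed ones included. It shared 126 members, and 74 of its 150 IDs were called higher after the spray and 1 lower, with a median of 1.99. Among its 24 IDs that were not members, 9 were called higher and 1 lower (14.4% and 13.3% of all tested IDs), with a median of 0.68. Their ratios under irrigation were too small for the list of members. That favours IDs high in irrigated wild type, and so lower spray differences. The mirror list moved the other way, with 51 of 150 IDs called lower after the spray and 2 higher and a median of -0.72. The mirror list was picked partly for being high in irrigated wild type, which favours a lower value in any other library. In median, each list stood in sprayed wild type on the side of the depleted line, and with this limit it is given as a description.

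**Figure D4:**
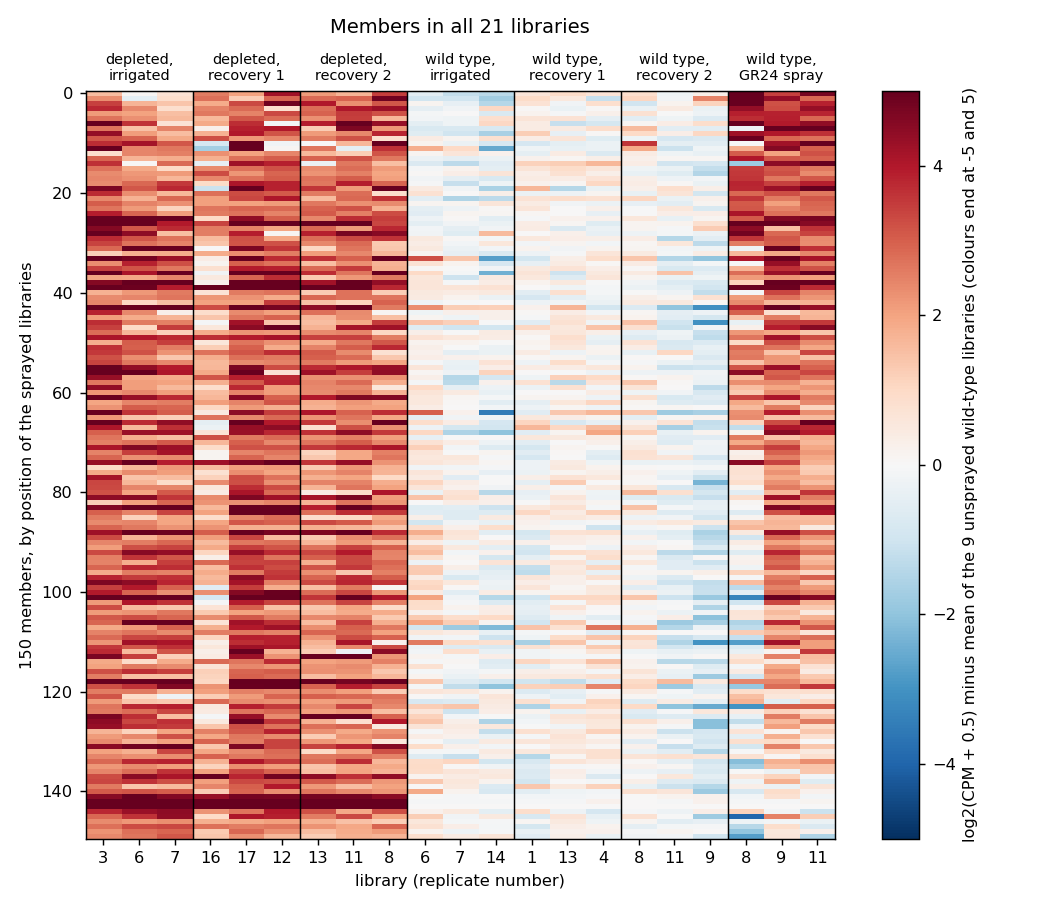
Log2(CPM + 0.5) of the 150 members (rows, ordered by the position of the sprayed libraries between the genotypes) minus the mean of the 9 unsprayed wild-type libraries, in all 21 libraries (columns, replicate numbers by group), with colours ending at -5 and 5. The 9 depleted columns are red nearly throughout, the 9 unsprayed wild-type columns are near white, and the sprayed columns 9 and 11 are mostly red while column 8 is red in the upper rows and pale or blue below.

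To place the sprayed leaves between the genotypes, the mean log2(CPM + 0.5) of the 9 unsprayed wild-type libraries was set to 0% and that of the 9 depleted libraries to 100%. The median member stood at 75.7% over the 3 sprayed libraries (quartiles 41.6 and 98.2%, range -59.9 to 220%). Positions of 50% or more were held by 100 members and of 100% or more by 33, while 19 were under 25% and 6 of these under 0%. For the mirror list the median position was 34.9%, with 57 IDs at 50% or more. By rank the median position was 86.8% for ranks 1 to 15, 57.1% for 16 to 50, 83.5% for 51 to 100 and 68.2% for 101 to 150, with no order along the list. The ends of this scale were set by libraries of the score, so positions are a description. They were also not corrected for shifts of all kept IDs on the CPM scale. Relative to unsprayed wild type, the median kept ID stood at log2 0.21, -0.05 and 0.17 in sprayed replicates 8, 9 and 11. In depleted libraries it stood at -0.44 (irrigated replicate 6) to 0.03 (recovery 1 replicate 16).

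The 3 sprayed libraries did not move equally. The median position was 36.7% in replicate 8 (quartiles -4.56 and 93.5%), 96.6% in replicate 9 (69.2 and 115%) and 83.7% in replicate 11 (56.0 and 111%). Replicate 8 exceeded the highest of the 9 unsprayed wild-type libraries in 76 members, replicate 9 in 135 and replicate 11 in 128. Shares of kept IDs were not taken for single sprayed libraries, so these counts and the single-library counts below are a description. All 3 did so in 70 members (13.4% of kept IDs), 2 in 56, 1 in 17 and none in 7. Against the irrigated wild-type libraries alone, all 3 sprayed libraries were higher in 76 members (28.8% of kept IDs) and all 3 lower in 1 (13.3%). Replicate 8 also had the smallest total of the 21 libraries, 19267602 counts, and lay below the lowest irrigated wild-type library in 30 members, against 2 for replicate 9 and 7 for replicate 11. The part of depth in this was not tested. Without replicate 8 edgeR called 88 members higher.

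**Figure D5:**
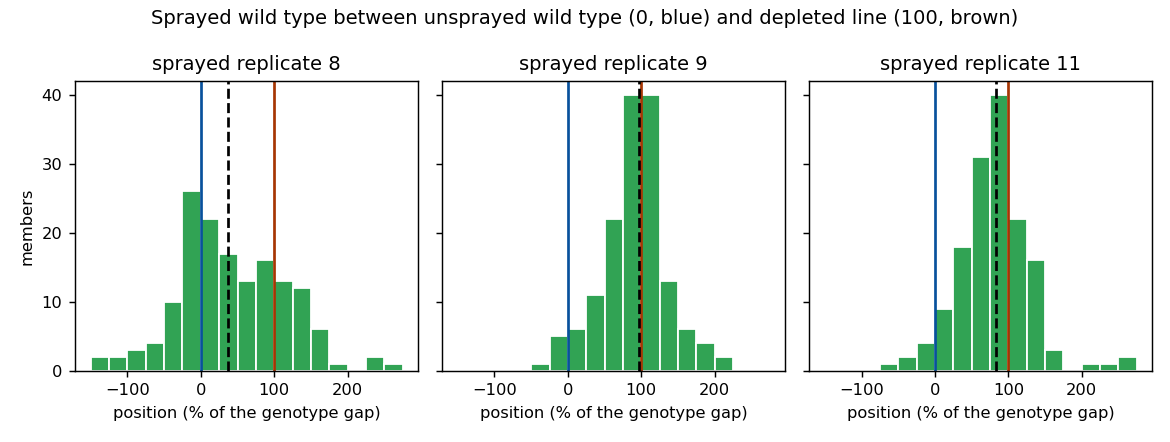
Number of members (y axis) by position of a sprayed library between unsprayed wild type, at 0% (blue line), and the depleted line, at 100% (brown line), on the log2(CPM + 0.5) scale (x axis), with 1 panel for each sprayed library and its median dashed. The medians are 36.7% in replicate 8, 96.6% in replicate 9 and 83.7% in replicate 11, and replicate 8 has the broadest spread.

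Among the 74 called members, the 4 largest differences after the spray included 2 with almost no counts in irrigated wild type. Solyc12g087940.2 (rank 44) had 0 counts in its 3 libraries, 0.208, 37.5 and 42.4 CPM in sprayed leaves and 4.96, 1.86 and 4.18 CPM in irrigated depleted leaves, while recovered wild type held 0.0857 to 2.08 CPM. Its mean over the 18 unsprayed libraries was 3.74 CPM, so that it was kept only through the sprayed ones, and its spray difference is therefore given as values, with no test. Solyc07g054310.2 (rank 19) had 1 count in irrigated wild type and 655 in sprayed leaves, all in replicates 9 and 11 (0, 6.63 and 13.01 CPM), a ratio of 704 with a 95% counting interval of 126 to 27865 (edgeR, adjusted p = 0.00289).

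The other 2 of these called members were Solyc12g013710.2 and Solyc08g067500.2, and each leaned on 1 library. For Solyc12g013710.2, with the values above, the difference was 6.62 ± 1.54 (edgeR, adjusted p = 0.00446), and without replicate 9 it was 4.70 (adjusted p = 0.0198). Solyc08g067500.2 (rank 39) stood at 1.86, 1.13 and 0.298 CPM in irrigated wild type and at 279, 19.4 and 30.6 CPM after the spray, all 3 above. Its difference was 6.23 ± 1.18 (edgeR, adjusted p = 0.000997), and without replicate 8 it was 4.21 (adjusted p = 0.00445).

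In 7 members, named here after their values were seen, no sprayed library lay above the highest of the 9 unsprayed wild-type libraries. They were Solyc06g060640.1, Solyc01g090660.3, Solyc05g005870.3, Solyc10g078580.1, Solyc06g075220.1, Solyc03g095260.3 and Solyc09g075580.1. Solyc10g078580.1 (rank 103) stood at 144, 174 and 235 CPM in irrigated depleted leaves, 48.9, 35.7 and 41.9 CPM in irrigated wild type and 3.53, 41.03 and 9.14 CPM after the spray, the lowest position of the list at -59.9%. The spray difference of -1.36 ± 0.61 did not pass (edgeR, adjusted p = 0.103), and without replicate 9, which alone lay within the irrigated range, it was -3.03 (adjusted p = 0.000278).

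Solyc09g075580.1 (rank 147) was level across sprayed libraries, at 2.18, 2.36 and 2.00 CPM, against 4.20, 2.39 and 2.51 CPM in irrigated wild type and 15.5, 13.6 and 15.3 CPM in irrigated depleted leaves. All 3 sprayed libraries lay below all 3 irrigated ones. The difference of -0.73 ± 0.29 missed the threshold (edgeR, adjusted p = 0.0732), with an adjusted p of 0.0421 without irrigated wild-type replicate 14 and 0.0448 in DESeq2. Solyc03g095260.3 stood at 15, 9.20 and 15.1 CPM after the spray against 5.26, 3.62 and 10.2 CPM under irrigation, within the span of recovered wild type.

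Members that were steady across conditions were not alike under the spray. Solyc12g055840.2 stood at 42.5, 99.2 and 59.8 CPM after the spray against 22.5, 22.6 and 24.02 CPM in irrigated wild type, with no overlap. Solyc07g032490.3 stood at 10.9, 53.8 and 17.4 CPM against 50.1, 37.1 and 27.04 CPM, although irrigated depleted leaves held 199.7, 284 and 303 CPM. Its difference of -0.65 ± 0.50 did not pass (edgeR, adjusted p = 0.345), and without replicate 9 it was -1.77 (adjusted p = 0.0057).

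Compared directly with irrigated depleted leaves, sprayed wild type was lower for 39 members (14.4% of all tested IDs) and higher for 4 (12.9%), with a median of -1.25. The members were chosen partly for being high in those depleted libraries, which favours lower values in any other. Solyc01g010480.3, with a difference of -0.73 ± 0.57, was in neither set (edgeR, adjusted p = 0.36).

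The 4 higher members, all named, exceeded the depleted line after the spray. Solyc03g119930.1 (rank 83) stood at 108, 105 and 102 CPM in sprayed leaves, 31.2, 28.6 and 20.2 CPM in irrigated depleted leaves and 6.31, 6.86 and 3.74 CPM in irrigated wild type, with no overlap. It was 1.49 ± 0.30 higher than the depleted line (edgeR, adjusted p = 0.00197) and 3.96 ± 0.33 higher than wild type (adjusted p = 2.77e-06). Solyc05g005865.1 (rank 116) stood at 115, 30.3 and 78.01 CPM, 7.91, 2.59 and 4.29 CPM and 1.49, 0.755 and 0.638 CPM in the same groups and was 3.41 ± 0.63 higher than the depleted line (adjusted p = 0.00115). Its table neighbour Solyc05g005870.3, also a member, did not share this and stood at 5.66, 20.04 and 11.9 CPM after the spray against 89.9, 94.9 and 87.9 CPM in the depleted line.

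The other pair was less firm. Solyc09g082810.3 (rank 85) stood at 2366, 1044 and 363 CPM after the spray and 248, 34.6 and 90.6 CPM in irrigated depleted leaves, a difference of 2.89 ± 0.86 (edgeR, adjusted p = 0.0203), with an adjusted p of 0.0715 to 0.0934 when depleted replicate 6 or 7 or sprayed replicate 8 was left out. Solyc08g067500.2 differed by 2.74 ± 0.98 (adjusted p = 0.0468). Without sprayed replicate 8 that was 0.71 (0.596), and without depleted replicate 6 or 7 the adjusted p was 0.148 or 0.144.

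Within a genotype, the share of members called between recovery and irrigation was at or below that of all tested IDs, while most members had negative differences. In the depleted line, recovery 1 against irrigation gave 1 member higher (2.83% of all tested IDs) and 3 lower (5.58%), with a median of -0.31 (93 of 150 negative), and recovery 2 gave 1 higher (4.35%) and 3 lower (6.04%), with a median of -0.40 (114 negative). In wild type, recovery 1 gave 0 higher and 0 lower, as it did over all tested IDs (0% in each direction), with a median of -0.24 (96 negative). There, 16 members had an unadjusted p under 0.05, against 1380 of all 20373 tested IDs, and DESeq2 called 0 members. Recovery 2 in wild type gave 0 higher (2.09%) and 3 lower (2.81%), with a median of -0.55 (106 negative). Over all tested IDs the 4 medians were 0.01, -0.02, 0.02 and -0.04 in the same order. At an unadjusted p under 0.05, 7 members were higher and 19 lower in recovery 2 of wild type, against 5000 of all tested IDs in either direction. The libraries of these comparisons all entered the score, though not in this form. An ID whose depleted level fell in a recovery, or whose wild-type level rose, had a smaller ratio there. Such an ID was less likely to be a member, so the shares of calls are given as a description.

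These small counts moved with single libraries. For recovery 1 of the depleted line the total was 0 without irrigated replicate 6 or recovery replicate 12, 1 without irrigated replicate 7 or recovery replicate 16, and 10 without recovery replicate 17. For recovery 2 it was 7 without irrigated replicate 3, 0 without irrigated replicate 7 or recovery replicate 11, 1 without irrigated replicate 6 or recovery replicate 13, and 2 without recovery replicate 8. For recovery 2 of wild type it was 0 without irrigated replicate 6 or 7 or recovery replicate 11 or 9.

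Solyc06g007440.3 (rank 29) was lower in both recoveries of the depleted line. It stood at 42.4, 57.6 and 41.96 CPM under irrigation, 1.42, 20.2 and 7.47 CPM in recovery 1 and 4.63, 11.9 and 10.1 CPM in recovery 2, with no overlap between irrigated and recovered libraries, and at 0.949 CPM or less in unsprayed wild type. The differences were -2.48 ± 0.70 in recovery 1 (edgeR, adjusted p = 0.0361) and -2.56 ± 0.70 in recovery 2 (adjusted p = 0.0277). Leaving out irrigated replicate 6 or 7 or replicate 16 or 12 of recovery 1 gave an adjusted p of 0.0806 to 0.131 for the first. Leaving out irrigated replicate 6 or 7 or any library of recovery 2 gave 0.0579 to 0.106 for the second. After the spray it stood at 7.58, 23.6 and 25.6 CPM.

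In recovery 1 of the depleted line the other lower members were Solyc11g007690.2, with a log2 difference of -1.31 ± 0.39 (edgeR, adjusted p = 0.044), and Solyc10g086410.3, with -0.81 ± 0.23 (adjusted p = 0.0381). The 1 higher member was Solyc05g005865.1, at 16.8, 11.3 and 52.4 CPM against 7.91, 2.59 and 4.29 CPM, by 2.19 ± 0.60 (adjusted p = 0.0342). The call of Solyc05g005865.1 was lost without irrigated replicate 6 (0.145) or 7 (0.122) or recovery replicate 12 (0.208). The call of Solyc11g007690.2 was lost without irrigated replicate 6 or 7 or recovery replicate 16 or 12 (adjusted p 0.120 to 0.186), and that of Solyc10g086410.3 without irrigated replicate 3 or 6 or any library of recovery 1 (0.0505 to 0.141).

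In recovery 2 of the depleted line Solyc03g119930.1 was higher, at 55.1, 81.1 and 64.99 CPM against 31.2, 28.6 and 20.2 CPM, by 1.21 ± 0.30 (edgeR, adjusted p = 0.0163). That call was lost without irrigated replicate 7 (0.0832) or recovery replicate 11 (0.0622). The lower members were Solyc07g063860.3, with a difference of -1.13 ± 0.35 (adjusted p = 0.05) and Solyc09g075580.1, with -0.95 ± 0.28 (adjusted p = 0.0389). Leaving out any 1 of the 6 libraries ended both of these calls, with adjusted p of 0.0674 to 0.152 and 0.0527 to 0.138.

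In recovery 2 of wild type the largest difference among the 3 called members was in Solyc08g074480.1 (rank 14), from 90.98, 42.4 and 41.7 CPM under irrigation to 11.1, 4.12 and 1.67 CPM, while irrigated depleted leaves held 837, 1107 and 937 CPM. The difference was -3.55 ± 0.91 (edgeR, adjusted p = 0.0352). The other lower members were Solyc03g112580.3, with a difference of -1.88 ± 0.49 (adjusted p = 0.0381) and Solyc11g007900.2, with -1.27 ± 0.30 (adjusted p = 0.0243). The call of Solyc08g074480.1 was lost without irrigated replicate 6 or 7 or recovery replicate 11 or 9 (adjusted p 0.0901 to 0.163). That of Solyc03g112580.3 was lost without any recovery library or irrigated replicate 6 or 7 (0.0540 to 0.183), and that of Solyc11g007900.2 without irrigated replicate 6 or 7 or recovery replicate 11 or 9 (0.0610 to 0.137).

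Differences between the 3 genotype ratios of a member were also fitted as interactions. They rest on the ratios that chose the members for a gap in all 3 conditions, so the counts are a description and nothing is read from them. At recovery 1, 0 members were called, against 0.255% of all tested IDs with a widened and 1.25% with a narrowed gap. At recovery 2, 0 were called, against 3.12 and 3.82%. At an unadjusted p under 0.05 in edgeR there were 3 members at recovery 1 and 7 at recovery 2, against 2432 and 4665 of all tested IDs. DESeq2 called 0 and 3 members. The counts became 1 at recovery 1 without depleted recovery replicate 17, and 1 and 2 at recovery 2 without irrigated depleted replicate 3 and without wild-type recovery replicate 8.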

How the data were processed

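Paired-end reads of 21 leaf libraries had been counted per gene before deposit, and the libraries, per the labels' protocols, had been made with the NEBNext Ultra RNA kit. HISAT2 and HTSeq are named in the submitters' processing notes, without version, settings or genome build, which the sources used here do not give. The deposited values are raw counts in 1 table. Its 6 further count columns that no label covers were not used. Groups and replicate numbers were taken from sample titles. The members and the lists were chosen with earlier results of these data known.

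From the counts, CPM and scores were computed as described (Python 3.11.15, pandas 2.3.3). Tests used edgeR 4.0.16 in R 4.3.3: 1 quasi-likelihood fit over all 21 libraries with 7 group means, TMM scaling and the filterByExpr filter, after a check on simulated data. DESeq2 1.42.0, other scaling, no filter, the compared groups alone and each library left out were alternatives. Counting bounds use 3 counts, and the interval of a ratio is exact binomial at 95%. The members named were the 10 highest scores, runs of 3 or more neighbours, the largest called changes (4 per direction for the spray, 2 for a recovery), the 3 on each side of the threshold and the extremes of ratio range and variation. Other named members were chosen after their values were seen. Replicate pairs differed well beyond sampling noise (chi-square per degree of freedom 28.9 to 334 over 21 pairs), so none was merged. Totals of 19267602 to 35433511 counts put 3 counts at 0.0847 to 0.156 CPM in a library, and intervals and bounds cover counting error only.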

Additional observations from a re-analysis of the deposited data

How the results depend on the processing

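The list shared 145 of 150 IDs with one scored with a pseudocount of 0.1, 137 with one of 2 and 145 with TMM-scaled CPM. It shared 119 and 118 with a mean of at least 1 and 10 CPM, and 126 with group medians. With the mean of 5 CPM taken over the 18 unsprayed libraries (chosen after seeing the data) it shared 147. Leaving out any 1 of those 18 libraries gave 131 to 146, and leaving out a single sprayed library was not tried for the list. The 74 members called after the spray became 86 higher and 1 lower in DESeq2, 74 in all with upper-quartile scaling, 69 with no low-count filter, 59 with the 2 groups fitted alone and 54 to 88 with a library left out. The 43 called between sprayed wild type and irrigated depleted leaves became 27 with the groups alone and 32 to 59 with a library left out. For recovery 1 of the depleted line the 4 calls became 1 with no filter, 9 in DESeq2, 0 with the groups alone and 0 to 10 with a library left out. For recovery 2 of that line the 4 became 2, 8, 9 and 0 to 7 in the same order. For recovery 2 of wild type the 3 became 1, 14, 10 and 0 to 3, and for its recovery 1 the count was 0 under all of these. The interaction counts, given as a description, became 3 in DESeq2 at recovery 2, 3 with the groups alone and 0 to 2 with a library left out, and at recovery 1 0 to 1. The cause of these changes was not tested. The genotype counts ranged over 116 to 138 under irrigation, 93 to 143 in recovery 1 and 107 to 134 in recovery 2 with a library left out.

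Correlations of same-numbered deviations between the genotypes were 0.065 and -0.045 under irrigation and 0.024 and -0.015 in recovery 2. So few shared replicate numbers cannot settle whether they pair the libraries. With a replicate block, 132 members were called under irrigation and 128 in recovery 2. Of 338 values of single named members under the alternatives, 245 kept their side of the threshold, 83 lost a call, 10 gained one and 0 changed direction. Members near 5 CPM rest on few counts in wild type, where 12 members had 0 counts in at least 1 of 12 libraries.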
